A study of Mus musculus with 7 samples.

Results

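Cytochrome P450 (Cyp) genes of families 1 to 4 were examined in whole kidneys of male mice lacking the sulfotransferases Hs3st3a1 and Hs3st3b1. Members were the protein-coding genes of the authors' filtered expression table whose symbols name a Cyp1, Cyp2, Cyp3 or Cyp4 gene with a subfamily letter and a number. They came to 49 of the 18797 genes in that table, in 17 subfamilies. Among 4 Hs3st3a1;3b1 double-knockout kidneys (DKO 1 to DKO 4) and 3 wild-type kidneys (WT 1, WT 2 and WT 4), all from males, genotype was the only labelled difference. The deleted parts of both genes, the cells in which they were deleted, the strain and the age were not stated in the labels. Each library carries a replicate number within its group and was taken as 1 animal, so the animal is the replicate.

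P450 enzymes of these families are heme proteins of the endoplasmic reticulum that insert 1 oxygen atom into their substrates, drawing electrons from P450 oxidoreductase and cytochrome b5. In the kidney they sit largely in the proximal tubule, where Cyp4a enzymes hydroxylate fatty acids and arachidonic acid at the omega end and Cyp2j and Cyp2c enzymes turn arachidonic acid into epoxides that act on tubular transport and vessel tone. Many of them are switched on by ligand-activated factors: the aryl hydrocarbon receptor (AHR) for Cyp1 genes, peroxisome proliferator-activated receptor alpha (PPAR-alpha) for Cyp4a10 and Cyp4a14. Androgen sets the level of several of them in the male mouse kidney.

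Gene counts were between 18330833 and 24259231 per library, and P450 genes took 0.904% to 1.10% of them in DKO libraries and 0.581% to 1.02% in WT libraries. Hs3st3a1 had 1, 0, 0 and 3 reads in DKO 1 to 4, against 29, 13 and 12 in WT 1, 2 and 4. Hs3st3b1 had 33, 106, 65 and 108 reads in DKO and 56, 90 and 112 in WT, and since the counts cover the whole gene this does not check the label. CPM are reads scaled to a common library size and, except in the limits for a count of 0, by edgeR's TMM factors. Proximal tubule markers summed to 6418 to 7510 CPM in DKO and 5014 to 6176 CPM in WT. Of these 10 markers 7 had a log2 fold change of DKO over WT above 0 (beside 53.2% of all genes), edgeR called 0 and DESeq2 called 2 (beside 7.36% of all genes), and their part in the levels below was not tested. Loop of Henle and distal markers summed to 4334 to 6547 CPM in DKO and 5514 to 9111 CPM in WT. Umod carried most of that sum and was the 1 of the 4 markers with a log2 fold change below 0. Adipocyte markers summed to 389 to 1163 CPM in DKO, highest in DKO 1, and to 178 to 813 CPM in WT. In whole tissue, fewer cells of a type and less RNA per cell cannot be told apart. DKO 3 and WT 4 are followed by name in the P450 results, DKO 3 for its ratio of Cyp2a5 to Cyp2a4 and WT 4 because it had the lowest level of 16 of the 36 P450 genes that had enough reads to test. The share of all genes lowest in WT 4 was not computed. Over all tested genes, the largest differences between libraries were those of WT 4 from the DKO libraries.

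**Figure D1:**
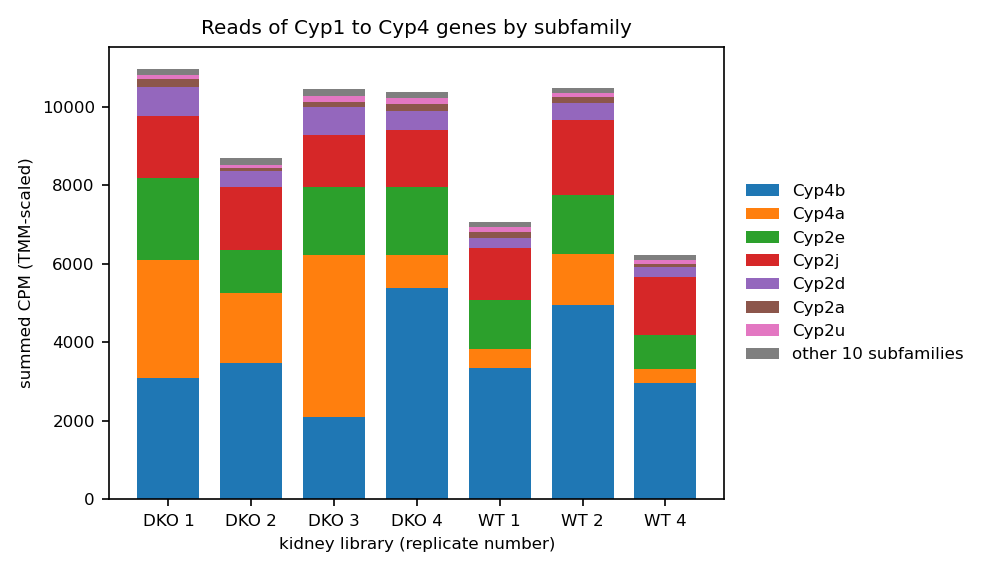
Summed CPM (y axis, TMM-scaled) of the P450 genes in each kidney library (x axis), stacked by subfamily with 10 small subfamilies joined in grey. The Cyp4a layer ran from 822 to 4137 CPM in DKO libraries and from 374 to 1292 CPM in WT libraries, while the totals were 8701 to 10981 CPM in DKO and 6214 to 10488 CPM in WT.

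Across the whole table edgeR's quasi-likelihood test called 0 of 15394 genes at a Benjamini-Hochberg adjusted p under 0.05 (0% of genes), and 0 of the 36 tested P450 genes. The deleted gene Hs3st3a1 was itself not called, at 17.8-fold lower in DKO with an edgeR unadjusted p of 0.000207 and an adjusted p of 0.163. At an unadjusted p under 0.05 it picked 11 of the 36 P450 genes (30.6%), beside 21.1% of all genes. Of these, 8 were higher in DKO (22.2% of P450 genes, beside 9.86% of all genes) and 3 were lower (8.33%, beside 11.3%). DESeq2 called 2 of the 25 P450 genes that received an adjusted p (8.0%), Cyp2d22 and Cyp4a31, both higher in DKO, beside 7.36% of all genes (2.43% higher and 4.93% lower). Among the tested P450 genes 27 had a log2 fold change of DKO over WT above 0 (75.0%, beside 53.2% of all genes), and the median was 0.34, beside 0.036 over all genes. Groups that did not overlap were found for 6 P450 genes (16.7%, beside 17.4% of all genes), 5 higher in DKO (beside 8.34% of all genes) and 1 lower (beside 9.04%). The count of 11 depended on single libraries, and so did its distance from the share of all genes. It was 4 without WT 4 (11.1%, beside 10.1% of all genes), 7 without WT 1 (19.4%, beside 19.1%), 7 without DKO 1 (19.4%, beside 24.8%), 7 without DKO 3 (19.4%, beside 14.4%) and 18 without WT 2 (50%, beside 23.1%). It stayed at 11 without DKO 2 (30.6%, beside 13.6%) and was 14 without DKO 4 (38.9%, beside 19.2%). The share of P450 genes was thus no longer above that of all genes without DKO 1, and within 1 percentage point of it without WT 1 or WT 4. The share above 0 moved less, with 25 to 29 of 36 genes above 0 when each library was left out in turn. The shares over all genes given here are also those to read beside the gene lists below.

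**Figure D2:**
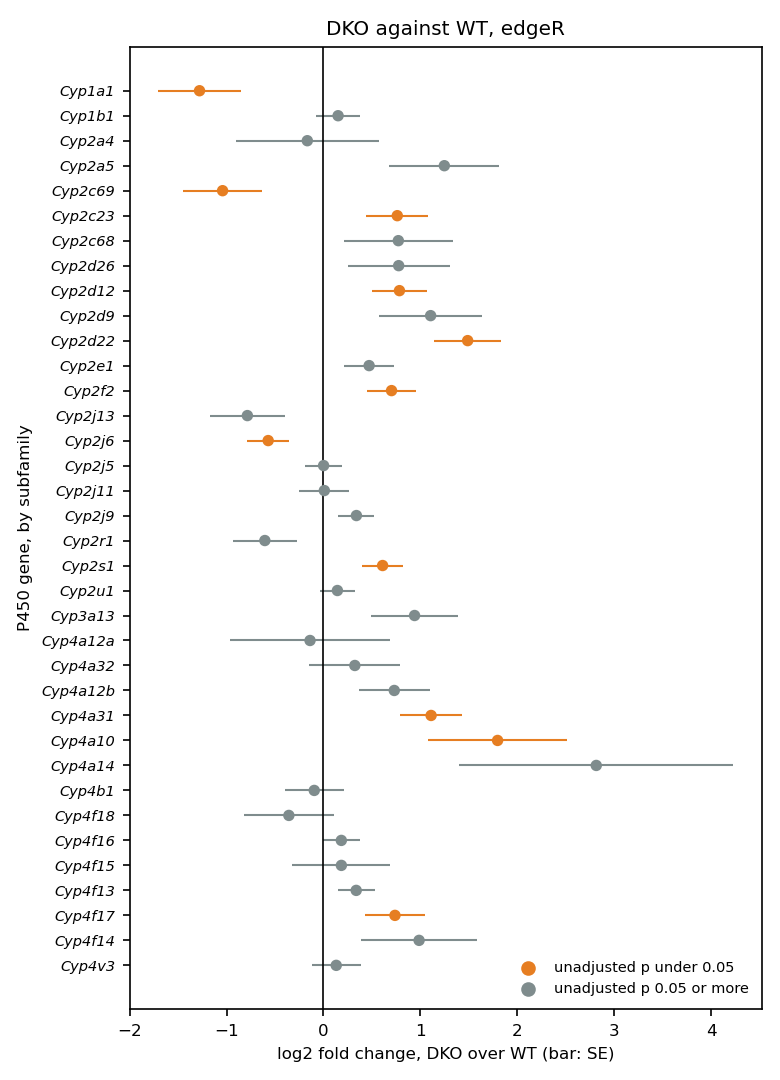
Log2 fold change of DKO over WT (x axis, bars are SE) for the 36 tested P450 genes (y axis, by subfamily), from edgeR, with orange for an unadjusted p under 0.05. Points lie right of 0 for 27 genes, and the 3 orange points left of 0 are Cyp1a1, Cyp2c69 and Cyp2j6.

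The fatty acid omega-hydroxylases of the Cyp4a subfamily had the widest span of summed CPM of any subfamily. Their 6 genes lie together on chromosome 4 (GRCm38), and 5 of them had a log2 fold change above 0. Together they held 2999, 1787, 4137 and 822 CPM in DKO 1 to 4, against 484, 1292 and 374 CPM in WT 1, 2 and 4. The groups overlapped, because DKO 4 lay below WT 2.

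Cyp4a10, a PPAR-alpha target that hydroxylates fatty acids (chr4:115518264-115533649, plus strand), had 1634, 985, 2227 and 414 CPM in DKO 1 to 4, against 214, 744 and 177 CPM in WT 1, 2 and 4. DKO 1, 2 and 3 lay above every WT library and DKO 4 lay inside the WT range. The means were 1315 ± 786 CPM in DKO (SD, n = 4) and 378 ± 317 CPM in WT (SD, n = 3). The fold was 3.48 (log2 fold change 1.80, SE 0.72), with an edgeR unadjusted p of 0.0386 and an adjusted p of 0.216. Without DKO 3 the log2 fold change was 1.41, and without WT 2 it was 2.75.

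Cyp4a14, the neighbouring PPAR-alpha target on the opposite strand (chr4:115486200-115496142), followed the same order of libraries over a wider range. It had 872, 327, 1335 and 44.6 CPM in DKO 1 to 4, against 32.0, 220.2 and 22.3 CPM in WT 1, 2 and 4. DKO 4 was again the lowest DKO library and WT 2 the highest WT library. The fold was 7.04 (log2 fold change 2.82, SE 1.41), with an edgeR unadjusted p of 0.0948, an adjusted p of 0.305 and a DESeq2 adjusted p of 0.121. The log2 fold change was 2.17 without DKO 3 and 4.57 without WT 2. In reads, Cyp4a14 was 0.533, 0.332, 0.599 and 0.108 of Cyp4a10 in DKO 1 to 4, against 0.149, 0.296 and 0.127 in WT 1, 2 and 4.

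Cyp4a31 (chr4:115563649-115579015, plus strand), a further Cyp4a fatty acid hydroxylase gene of the same cluster, varied less than Cyp4a10 within each group. It had 449.6, 459, 523 and 251 CPM in DKO 1 to 4, against 176, 287 and 121 CPM in WT 1, 2 and 4. DKO 4 alone lay inside the WT range. The fold was 2.16 (log2 fold change 1.11, SE 0.32), with an edgeR unadjusted p of 0.00594, an adjusted p of 0.163 and a DESeq2 adjusted p of 0.0252. Leaving out any 1 library kept its edgeR adjusted p at or above 0.05.

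Cyp4a10 and Cyp4a31 are near copies, which bears on how reads are divided between them. Their coding sequences are 96.6% identical, with 52 of 1530 bases different, and 19.5% of all stretches of 50 bases are the same in both. The stretch from coding base 73 to 162 is shown because it holds 7 differences, in capitals (GRCm38, plus strand):
Cyp4a10: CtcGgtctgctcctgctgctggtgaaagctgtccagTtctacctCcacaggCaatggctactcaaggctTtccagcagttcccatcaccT
Cyp4a31: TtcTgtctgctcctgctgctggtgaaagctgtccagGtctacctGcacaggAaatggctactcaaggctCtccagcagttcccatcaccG
Cyp4a10 and Cyp4a32 are closer still, at 97.2%, with 34.8% of stretches of 50 bases shared. Cyp4a32 had 0.816 to 1.28 CPM in DKO and 0.259 to 1.09 CPM in WT. Cyp4a10 and Cyp4a14 share 77.9% and no stretch of 50 bases. The labels do not say how reads matching several genes were counted, which makes the split between near copies uncertain.

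Cyp4a12a, the androgen-dependent arachidonic acid omega-hydroxylase of the male mouse kidney, did not follow the Cyp4a10 order. It and its near copy Cyp4a12b (98.5% identical, 23 of 1527 coding bases different) are described here although their values were seen first. Cyp4a12a had 20.7, 6.88, 25.2 and 92.8 CPM in DKO 1 to 4, against 50.5, 23.7 and 46.3 CPM in WT 1, 2 and 4. The highest library was DKO 4, the one with the lowest DKO level of Cyp4a10, and the lowest was DKO 2. Cyp4a12b had 21.96, 9.25, 26.2 and 18.9 CPM in DKO, against 10.8, 16.5 and 7.19 CPM in WT. Cyp4a12a reads were 0.944, 0.744, 0.963 and 4.92 times those of Cyp4a12b in DKO 1 to 4, against 4.68, 1.44 and 6.43 times in WT 1, 2 and 4. Neither differed at an unadjusted p under 0.05 (log2 fold change -0.14, SE 0.83, and 0.73, SE 0.37). Without DKO 4 the log2 fold change of Cyp4a12a was -1.19, with an edgeR unadjusted p of 0.0338 and an adjusted p of 0.233. For Cyp4a12b it was 0.96 without DKO 2 (unadjusted p 0.00717) and 1.09 without WT 2 (unadjusted p 0.0210), and with those libraries left out the adjusted p was 0.351 and 0.153. Without WT 4 the log2 fold change of Cyp4a12b was 0.48, and without DKO 2 that of Cyp4a12a was 0.21.

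Androgen-dependent kidney genes were measured beside these levels. Kap, the kidney androgen-regulated protein, had 913, 895, 273 and 2040 CPM in DKO 1 to 4, against 2594, 2339 and 5423 CPM in WT 1, 2 and 4. Slco1a1, an organic anion transporter, had 27.0, 27.2, 1.23 and 117 CPM in DKO, against 160.5, 176 and 182 CPM in WT. For both genes the DKO libraries were all lower than WT, DKO 3 lowest and DKO 4 nearest to WT. Of the 6 genes on this list 5 had a log2 fold change below 0 (median -1.02), 2 of them at an unadjusted p under 0.05, edgeR called 0 and DESeq2 called 1. Its part in the P450 levels was not tested.

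**Figure D3:**
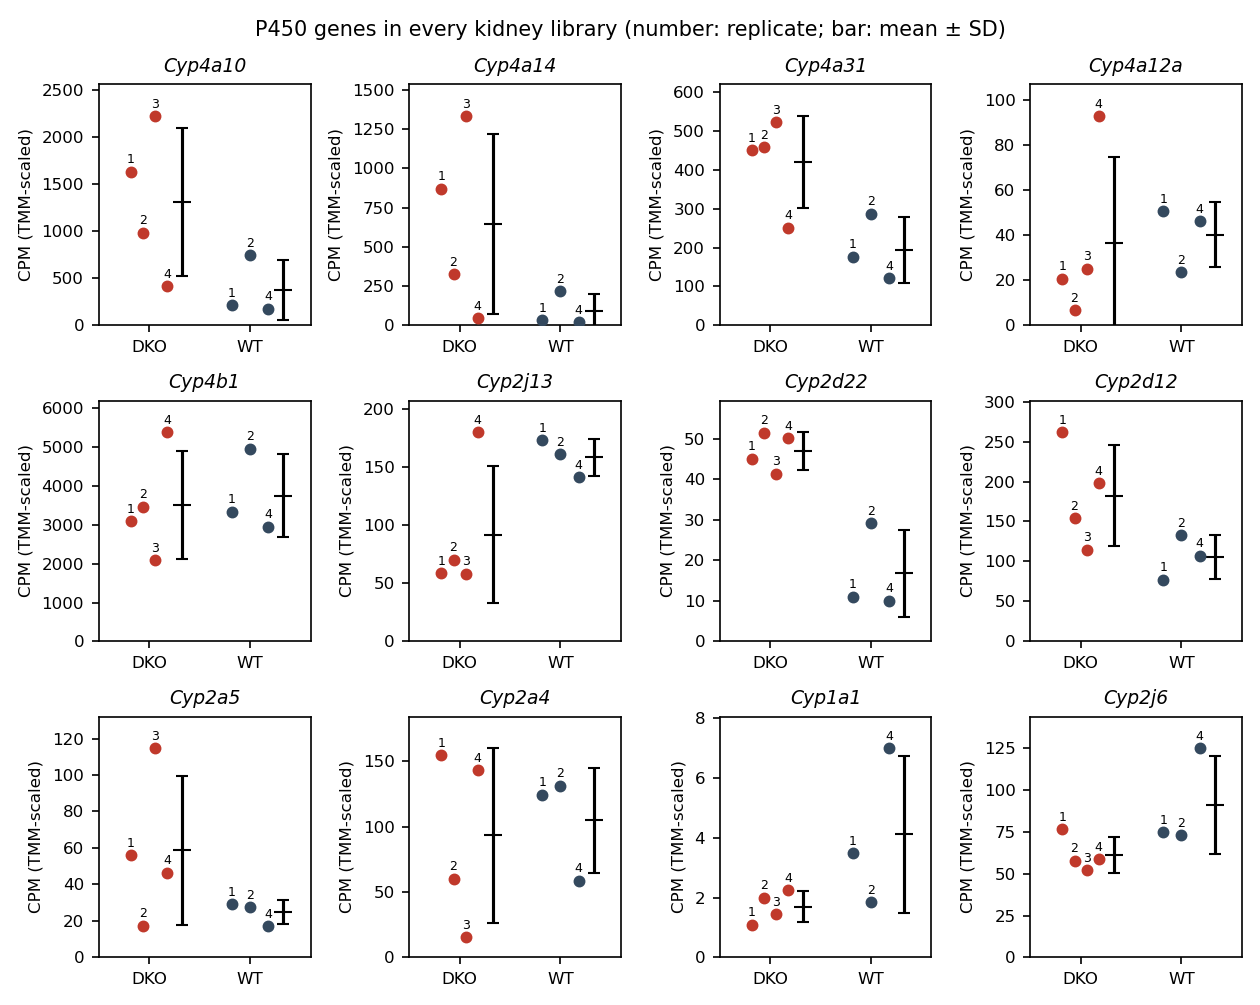
CPM (y axes, TMM-scaled, each from 0) of 12 P450 genes in every library, with red for DKO on the left, blue for WT on the right, the replicate number above each point, and the mean ± SD beside each group (bars reaching below 0 are cut at 0). The Cyp4a10 and Cyp4a14 points of DKO 1, 2 and 3 lie above those of all WT libraries, and the 4 Cyp2d22 points of DKO, from 41.4 to 51.5 CPM, lie above the WT points, from 10.1 to 29.2 CPM.

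Cyp4b1, which hydroxylates short fatty acids and activates several plant and environmental toxins, had the highest mean level of the P450 genes in both groups. Per kilobase of exon (RPKM, the CPM divided by exon length) it reached 1557 ± 612 in DKO (SD, n = 4) and 1662 ± 471 in WT (SD, n = 3). Its CPM were 3098, 3467, 2091 and 5391 in DKO 1 to 4, against 3339, 4957 and 2955 in WT 1, 2 and 4. The WT range lay inside the DKO range, with DKO 3 lowest and DKO 4 highest. The log2 fold change was -0.09 (SE 0.31, edgeR adjusted p 0.878). It exceeded Cyp2e1 in each of the 7 libraries and Cyp4a10 in 6 of them, DKO 3 being the exception. In DKO the next mean RPKM were 774 ± 194 for Cyp2e1, 623 ± 373 for Cyp4a10 and 523 ± 54.9 for Cyp2j5, and these 3 overlapped over animals. They were followed by Cyp4a14 at 248 ± 221, Cyp4a31 at 168 ± 46.9 and Cyp2d26 at 107 ± 83.1, which overlapped as well. The order differed in WT, where Cyp2e1 at 558 ± 148 and Cyp2j5 at 522 ± 117 overlapped and Cyp4a10 at 179 ± 150.3 lay below both in every library. Cyp4a31 at 77.6 ± 33.8, Cyp2d26 at 62.7 ± 3.73, Cyp2a4 at 60.3 ± 23.1 and Cyp2j11 at 51.5 ± 23.4 came next in WT, ahead of Cyp4a14 at 35.2 ± 42.9, with overlap among them.

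Cyp2e1, which oxidises ethanol, acetone and paracetamol, had 2104, 1096, 1744 and 1739 CPM in DKO 1 to 4, against 1246, 1502 and 867 CPM in WT 1, 2 and 4. DKO 2 lay inside the WT range and the other DKO libraries above it. The log2 fold change was 0.47 (SE 0.26), with an edgeR unadjusted p of 0.0928 and an adjusted p of 0.303. Cyp2u1, a long-chain fatty acid hydroxylase, had 96.6 to 145 CPM in DKO and 100.4 to 127 CPM in WT (log2 fold change 0.14, SE 0.18). Its exons share 548 bases with a gene on the opposite strand, and the library kit does not mark strand.

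The arachidonic acid epoxygenases of the Cyp2j subfamily showed no common direction, with 3 of 5 tested genes above 0. Cyp2j5, the main epoxygenase of this subfamily in mouse kidney, had 1308, 1364, 1103 and 1131 CPM in DKO 1 to 4, against 1017, 1537 and 1122 CPM in WT 1, 2 and 4, and the DKO range lay inside the WT range (log2 fold change 0.00, SE 0.19). Cyp2j11 averaged 99.3 ± 14.0 CPM in DKO (SD, n = 4) and 98.6 ± 44.8 CPM in WT (SD, n = 3). Cyp2j6 had 76.9, 57.9, 52.2 and 58.8 CPM in DKO, against 75.1, 73.3 and 125 CPM in WT, and DKO 1 alone overlapped with WT. Its log2 fold change was -0.57 (SE 0.22), with an edgeR unadjusted p of 0.0228 and an adjusted p of 0.187, and it was -0.27 without WT 4. Cyp2j13 had 58.4, 70.3, 58.1 and 179.9 CPM in DKO 1 to 4, against 173, 161 and 141 CPM in WT 1, 2 and 4. DKO 1, 2 and 3 lay below every WT library and DKO 4 above them all. The log2 fold change was -0.79 (SE 0.38, edgeR adjusted p 0.274), and it was -1.34 without DKO 4 and -0.62 without DKO 1. Soluble and microsomal epoxide hydrolases, which open the epoxides these enzymes form, overlapped between the groups. Ephx2 had 179.5 to 224 CPM in DKO and 186 to 233 CPM in WT, and Ephx1 had 53.6 to 88.8 CPM in DKO and 50.02 to 61.2 CPM in WT. Of 11 tested eicosanoid enzymes 4 were above 0 and 7 below (median -0.13), edgeR called 0 and DESeq2 called 1.

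All 4 tested Cyp2d genes, neighbours on chromosome 15, had a log2 fold change above 0. Cyp2d22, held to be the mouse counterpart of the human drug-metabolising CYP2D6 (chr15:82370527-82380260, minus strand), had 45.1, 51.5, 41.4 and 50.1 CPM in DKO 1 to 4, against 11.1, 29.2 and 10.1 CPM in WT 1, 2 and 4. Every DKO library lay above every WT library, and the 4 DKO values were within 1.25-fold of each other. The fold was 2.81 (log2 fold change 1.49, SE 0.35), with an edgeR unadjusted p of 0.00167, an adjusted p of 0.163 and a DESeq2 adjusted p of 0.00669. Without WT 2 the log2 fold change was 2.15 and the edgeR adjusted p 0.00792. The log2 fold change was 1.23 without WT 4, and over all alternatives the adjusted p ranged from 0.00669 to 0.491.

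Cyp2d12, whose substrates are not well known, had 262, 154, 115 and 198 CPM in DKO 1 to 4, against 77.3, 133 and 107 CPM in WT 1, 2 and 4. Of the DKO libraries only DKO 3 lay inside the WT range. Its log2 fold change was 0.78 (SE 0.28, edgeR unadjusted p 0.0181, adjusted p 0.178). Cyp2d9, a testosterone hydroxylase typical of male mice, had 235, 103, 151 and 151 CPM in DKO, against 40.7, 146 and 35.8 CPM in WT. WT 2 exceeded DKO 2. The log2 fold change of 1.11 (SE 0.53, adjusted p 0.271) was 2.06 without WT 2 and 0.77 without WT 4. Cyp2d26 had 186, 101, 405 and 78.4 CPM in DKO, against 119, 112 and 106 CPM in WT. WT libraries were close together while DKO libraries lay on both sides of them, and the log2 fold change of 0.78 (SE 0.53) was 0.11 without DKO 3. Coding sequences of Cyp2d9 and Cyp2d12 are 92.1% identical, with 12.1% of stretches of 50 bases shared.

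**Figure D4:**
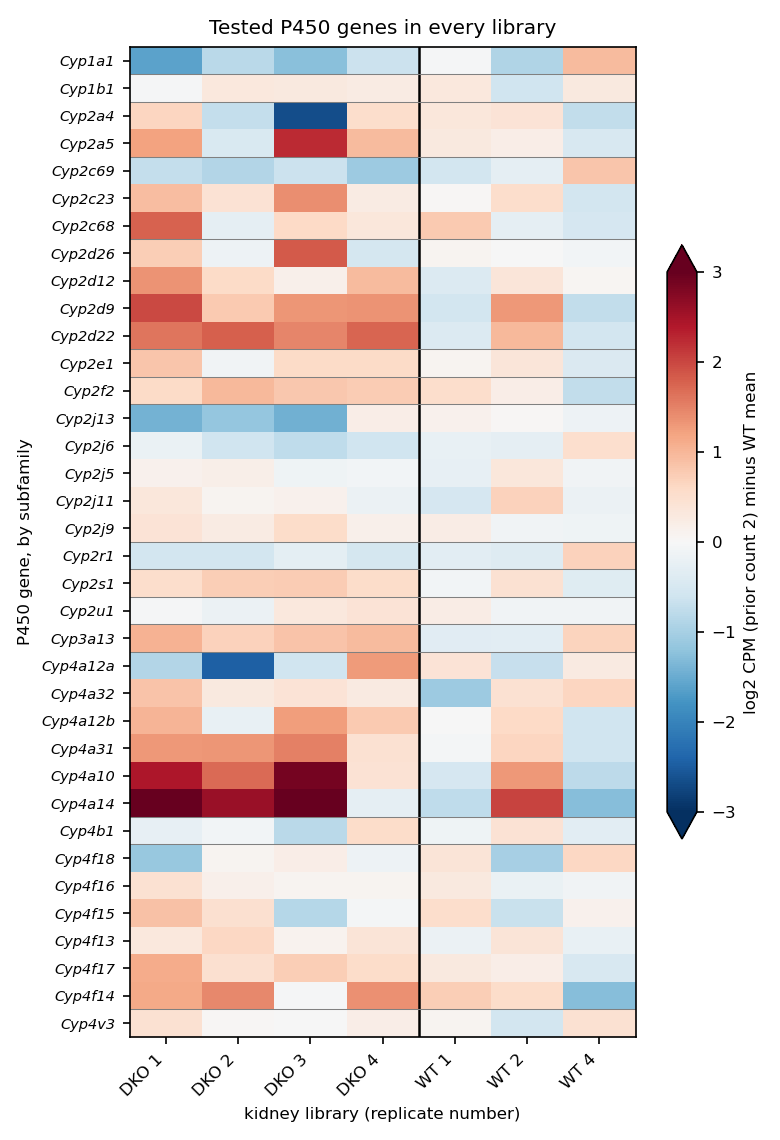
Difference from the WT mean in log2 CPM (prior count 2), as colour, for the 36 tested P450 genes (y axis, by subfamily) in each library (x axis, DKO left of the line, WT right). Cyp4a10 and Cyp4a14 are red in DKO 1, 2 and 3 and in WT 2, and Cyp2a4 and Cyp2a5 have opposite colours in DKO 3.

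Cyp2a5, the coumarin hydroxylase, and Cyp2a4, a testosterone hydroxylase, are neighbours on chromosome 7 whose balance was turned round in a single animal. Cyp2a5 was chosen for description after its values were seen. It had 56.2, 17.4, 115 and 46.4 CPM in DKO 1 to 4, against 29.3, 27.6 and 17.2 CPM in WT 1, 2 and 4. Cyp2a4 had 155, 60.1, 15.5 and 143 CPM in DKO 1 to 4, against 124, 131 and 58.7 CPM in WT 1, 2 and 4. DKO 3 had the most Cyp2a5 and the least Cyp2a4 of all 7 libraries. In that library Cyp2a5 had 7.40 reads for each Cyp2a4 read, whereas the ratio was 0.290 to 0.363 in the other DKO libraries and 0.210 to 0.294 in WT libraries. Summed over both genes, DKO 3 had 130.4 CPM, inside both the 77.6 to 211 CPM range of the other DKO libraries and the 75.9 to 159.0 CPM range of WT libraries. The log2 fold change was 1.25 for Cyp2a5 (SE 0.57, edgeR adjusted p 0.257) and 0.69 without DKO 3. For Cyp2a4 it was -0.17 (SE 0.74, adjusted p 0.915) and 0.18 without DKO 3.

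Both coding sequences are 98.5% identical, with 23 of 1485 bases different and 38.1% of stretches of 50 bases the same in both, so that reads inside those stretches cannot be placed from sequence alone. Coding bases 580 to 669 hold 5 of the differences that do separate them, in capitals (GRCm38, plus strand):
Cyp2a5: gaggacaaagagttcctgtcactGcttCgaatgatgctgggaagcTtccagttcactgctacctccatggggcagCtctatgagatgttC
Cyp2a4: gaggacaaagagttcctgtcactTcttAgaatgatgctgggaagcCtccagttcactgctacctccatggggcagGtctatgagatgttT
Their promoters, from 250 bases before to 50 after the RefSeq start (GRCm38.p6), are shown because the genes parted in DKO 3. They matched at 98.3% over 299 aligned bases, with 5 differences and 2 gap positions, and capitals mark the letters TATAAA, 29 bases before the start in Cyp2a5 (chr7:26835089-26835388, plus strand) and 28 before it in Cyp2a4 (chr7:26306942-26307241, plus strand):
Cyp2a5: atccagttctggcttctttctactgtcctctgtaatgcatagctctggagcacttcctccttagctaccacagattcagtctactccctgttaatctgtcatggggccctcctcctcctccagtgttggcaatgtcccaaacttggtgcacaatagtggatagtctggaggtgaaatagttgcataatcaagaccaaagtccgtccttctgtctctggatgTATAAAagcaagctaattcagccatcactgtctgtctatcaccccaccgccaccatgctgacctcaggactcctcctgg
Cyp2a4: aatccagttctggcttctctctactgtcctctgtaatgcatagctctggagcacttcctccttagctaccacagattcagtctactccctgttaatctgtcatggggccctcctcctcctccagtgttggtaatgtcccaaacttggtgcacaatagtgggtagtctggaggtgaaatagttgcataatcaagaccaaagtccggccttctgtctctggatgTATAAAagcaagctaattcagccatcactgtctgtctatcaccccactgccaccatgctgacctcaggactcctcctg
On either strand, TATAAA was in 16 of 43 RefSeq promoters of P450 genes (37.2%) and in 13.6% of 32851 promoters of that length.

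Cyp1a1, the classical AHR target that oxidises polycyclic hydrocarbons, was scarce in all kidneys. It had 1.10, 1.996, 1.44 and 2.24 CPM in DKO 1 to 4, against 3.48, 1.85 and 7.003 CPM in WT 1, 2 and 4. WT 4 was the highest library and WT 2 lay inside the DKO range. The level in DKO was lower by 2.43-fold (log2 fold change -1.28, SE 0.42), with an edgeR unadjusted p of 0.0120 and an adjusted p of 0.164. Without WT 4 the log2 fold change was -0.65. Its RefSeq promoter (GRCm38.p6, chr9:57697363-57697662, plus strand) is shown for the AHR core GCGTG, in capitals 54 bases before the start, and the TATAAA, in capitals 30 bases before it:
Cyp1a1: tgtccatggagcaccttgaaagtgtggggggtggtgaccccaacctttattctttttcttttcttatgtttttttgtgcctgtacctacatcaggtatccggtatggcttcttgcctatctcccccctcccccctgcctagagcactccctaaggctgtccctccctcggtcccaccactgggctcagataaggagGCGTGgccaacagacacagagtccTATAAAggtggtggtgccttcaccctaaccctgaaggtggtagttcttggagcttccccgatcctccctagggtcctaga
On either strand GCGTG was in 11 of the 43 P450 promoters (25.6%) and in 32.4% of all 32851.

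Other AHR targets were measured beside Cyp1a1. All 4 on the list had a log2 fold change above 0 (median 0.48). Of these, 0 were at an edgeR unadjusted p under 0.05 (beside 21.1% of all genes), and edgeR called 0. Nqo1, a quinone reductase, had 208, 103, 122 and 76.6 CPM in DKO 1 to 4, against 81.1, 137 and 89.9 CPM in WT 1, 2 and 4. Tiparp, which ribosylates and restrains AHR, had 20.8 to 40.2 CPM in DKO and 19.8 to 26.3 CPM in WT. Both groups overlapped for these genes. Cyp1b1, an AHR target that hydroxylates estrogens, had 14.2 to 18.02 CPM in DKO and 9.58 to 18.1 CPM in WT (log2 fold change 0.15, SE 0.22).

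Among the remaining Cyp2 genes, Cyp2f2, which activates naphthalene in mouse airways, had 30.5, 40.1, 35.6 and 34.4 CPM in DKO 1 to 4, against 29.4, 23.3 and 12.1 CPM in WT 1, 2 and 4. The groups did not overlap, and the log2 fold change was 0.70 (SE 0.26, edgeR unadjusted p 0.0197, adjusted p 0.18). Without WT 4 it was 0.42. Cyp2s1, an AHR-inducible epithelial P450, had 14.9, 17.5, 17.6 and 15.2 CPM in DKO, against 9.76, 14.3 and 7.997 CPM in WT. These groups did not overlap either, with a log2 fold change of 0.61 (SE 0.21, unadjusted p 0.0136, adjusted p 0.167) that was 0.44 without WT 4. Cyp2f2 shares 274 exon bases and Cyp2s1 shares 260 with a gene on the opposite strand, whose reads cannot be told apart in these libraries. Cyp2c23, the arachidonic acid epoxygenase of the Cyp2c subfamily in kidney, had 37.1, 26.3, 51.6 and 22.9 CPM in DKO, against 19.8, 27.9 and 13.2 CPM in WT. WT 2 lay within the DKO range, and the log2 fold change of 0.76 (SE 0.32, unadjusted p 0.0390, adjusted p 0.217) was 0.50 without DKO 3.

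Cyp2c69 was close to the detection limit, with 0.836, 0.735, 0.871 and 0.612 CPM in DKO 1 to 4, against 0.934, 1.16 and 2.60 CPM in WT 1, 2 and 4. It was the P450 gene whose DKO libraries all lay below WT (log2 fold change -1.04, SE 0.41, edgeR unadjusted p 0.0279, adjusted p 0.198), and the value was -0.46 without WT 4. Cyp2r1, a hepatic vitamin D hydroxylase, had 1.52 to 1.85 CPM in DKO and 1.75 to 3.79 CPM in WT (log2 fold change -0.60, SE 0.33). Cyp3a13, the tested member of the drug-metabolising Cyp3a subfamily, had 0.836, 0.630, 0.718 and 0.775 CPM in DKO, against 0.259, 0.265 and 0.615 CPM in WT. The DKO libraries lay above WT by a narrow margin, and the log2 fold change was 0.94 (SE 0.45, adjusted p 0.255).

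In the Cyp4f subfamily, whose enzymes hydroxylate leukotrienes and long fatty acids, 5 of 6 genes had a log2 fold change above 0. Cyp4f17 had 3.48, 2.21, 2.67 and 2.33 CPM in DKO 1 to 4, against 1.92, 1.80 and 1.09 CPM in WT 1, 2 and 4, with no overlap. Its log2 fold change of 0.74 (SE 0.31, edgeR unadjusted p 0.0369, adjusted p 0.213) was 0.52 without WT 4. Summed over the subfamily the values were 42.2 to 56.3 CPM in DKO and 34.7 to 45.8 CPM in WT. Cyp4v3, the mouse relative of the human fatty acid hydroxylase CYP4V2, had 5.18 to 7.22 CPM in DKO and 3.55 to 7.15 CPM in WT (log2 fold change 0.13, SE 0.25).

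The remaining 13 members had too few reads to test, and their largest level was 5.18 CPM. They received 74, 12, 252 and 23 reads in DKO 1 to 4, against 22, 9 and 13 in WT 1, 2 and 4. DKO 3 had reads of all 13, but membership itself rests on that library in part. The 31 annotated genes of these families left out of the authors' table had at most 5 reads in any library, and 7 of the 13 scarce members had more than that in DKO 3 alone, 5 of them with 0 reads everywhere else. The liver genes Cyp2c29, Cyp2c50, Cyp3a11 and Cyp3a25 had 101, 29, 28 and 16 reads in DKO 3, against at most 7, 0, 3 and 0 in the other DKO libraries and at most 6, 0, 0 and 0 in WT libraries. These 4 were chosen after their values were seen. Cyp2b10, the target of the constitutive androstane receptor, had 37, 1, 12 and 4 reads in DKO 1 to 4, against 5, 0 and 0 in WT 1, 2 and 4, so DKO 1 was its highest library. Without TMM scaling, a count of 0 allowed up to 0.124 to 0.164 CPM in DKO libraries and up to 0.133 to 0.157 CPM in WT libraries.

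Hepatocyte markers were measured beside these reads, and 4 of the 5 that could be tested had a log2 fold change above 0, with 0 called by edgeR. Alb, serum albumin, had 7.97, 4.20, 15.02 and 6.37 CPM in DKO 1 to 4, against 4.20, 5.45 and 4.50 CPM in WT 1, 2 and 4. Ahsg had 1.13 CPM in DKO 3, at most 0.0408 CPM in the other DKO libraries and at most 0.0519 CPM in WT libraries. Apoa1 at 4.46 CPM, Serpina3k at 4.15 CPM and Fgb at 5.33 CPM were also highest in DKO 3. Ttr, transthyretin, was lowest there at 66.6 CPM, with 199 to 452 CPM in the other DKO libraries and 272 to 558 CPM in WT libraries. Summed over all 6 markers the level was 96.7 to 468 CPM in DKO and 284 to 569.7 CPM in WT, most of it Ttr. The part of these transcripts in the DKO 3 values was not tested.

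**Figure D5:**
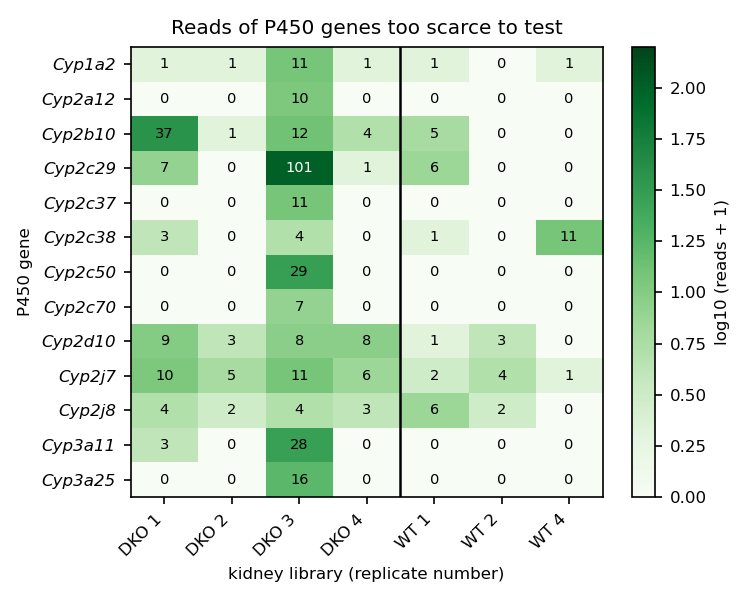
Reads (number in each cell, colour as log10 of reads plus 1) of the 13 P450 genes too scarce to test (y axis) in each library (x axis, DKO left of the line, WT right). The DKO 3 column holds reads of all 13 genes, up to 101 for Cyp2c29, and Cyp2b10 is highest in DKO 1 with 37.

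Partners and regulators of P450 enzymes were counted in the same fit. Cyb5a, cytochrome b5, had 971, 801, 768 and 961 CPM in DKO 1 to 4, against 1203, 1232 and 2001 CPM in WT 1, 2 and 4. The groups did not overlap, DKO being lower, with a log2 fold change of -0.76 (SE 0.22), an edgeR unadjusted p of 0.00492, an adjusted p of 0.163 and a DESeq2 adjusted p of 0.0260. Its reductase Cyb5r3 had 465 to 564 CPM in DKO and 337 to 466 CPM in WT (log2 fold change 0.28, SE 0.18). Of the 6 redox partners 2 were above 0 and 4 below, and edgeR called 0.

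Of 15 tested nuclear receptors and other regulators 12 had a log2 fold change above 0 (beside 53.2% of all genes, median 0.28), 5 of them at an unadjusted p under 0.05, edgeR called 0 and DESeq2 called 1. Hnf4a, the receptor that maintains the hepatic and proximal tubular programmes, had 284, 335, 321 and 199 CPM in DKO 1 to 4, against 163, 255 and 128 CPM in WT 1, 2 and 4, with DKO 4 inside the WT range (log2 fold change 0.65, SE 0.26, unadjusted p 0.0299, adjusted p 0.201). Nr1h4, the bile acid receptor FXR, had 90.6 to 107 CPM in DKO and 102 to 151 CPM in WT. Ppara, which encodes PPAR-alpha and was taken up after its values were seen, had 12.3 to 18.8 CPM in DKO and 9.08 to 13.2 CPM in WT.

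Of 14 PPAR-alpha targets outside the P450 genes 13 had a log2 fold change above 0 (beside 53.2% of all genes, median 0.47). Of the 14, 2 were at an unadjusted p under 0.05 (14.3%, beside 21.1% of all genes), and edgeR and DESeq2 each called 0. Acot2, a mitochondrial acyl-CoA thioesterase, had 372 to 588 CPM in DKO and 320 to 540 CPM in WT (log2 fold change 0.14, SE 0.23), and the groups overlapped.

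Of 9 tested P450 genes of other families 7 had a log2 fold change above 0 and edgeR called 0. Cyp24a1, which inactivates vitamin D, had 498, 271, 75.2 and 129.5 CPM in DKO 1 to 4, against 107, 286 and 29.1 CPM in WT 1, 2 and 4. Cyp39a1, an oxysterol hydroxylase, had 155 to 250 CPM in DKO and 108 to 251 CPM in WT. Cyp27b1, which activates vitamin D and was chosen after its values were seen, had 92.8, 17.8, 108 and 9.39 CPM in DKO and 10.95, 6.72 and 12.9 CPM in WT, highest in DKO 1 and DKO 3, with a log2 fold change of 2.49 (SE 0.95, edgeR adjusted p 0.215). Of 12 genes of heme synthesis and breakdown 5 were above 0 and 7 below (median -0.21). Blvra, biliverdin reductase, had 171 to 230 CPM in DKO and 205 to 298 CPM in WT, and Alad, the enzyme that forms porphobilinogen, had 154 to 219 CPM in DKO and 185 to 193 CPM in WT.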

How the data were processed

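RNA from whole kidneys was sequenced from libraries of an unstranded tagmentation kit, per the labels' protocols. The authors deposited raw read counts per Ensembl gene, a filtered count table, and a TMM-scaled CPM table (a signal on the scale of the filtered library sizes). The submitters' processing notes name STAR 2.5.2a, edgeR, limma, DESeq2 and the builds GRCm38, mm10 and GRCh38. No label or header names the read counter or its strand option. The CPM table gave gene symbols and biotypes. All values were computed from the raw counts, joined by Ensembl ID, after leaving out 24 rows without one (at most 0.000697% of a library).

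DKO was compared with WT over 7 libraries with edgeR 4.0.16 in R 4.3.3 (robust quasi-likelihood fit, TMM, filterByExpr with minimum count 10 and total 15, 15394 genes tested). P-values are two-sided and Benjamini-Hochberg adjusted over all tested genes, called at an adjusted p under 0.05. SEs were derived from the F statistic. Alternatives were DESeq2 1.42.0, limma-voom (limma 3.58.1), DESeq2 size factors in edgeR, no low-count filter, a length and GC trend removed (loess, span 0.5), each library left out and the replicate number as a block. Simulated counts with known changes were used to test the fits. Library pairs differed by more than sampling noise (median chi-square per gene at least 2.64, on 1 degree of freedom). The largest values were 9.24, 15.3, 16.2 and 11.1, for WT 4 against DKO 1 to 4. Floors of 3 counts cover counting error only.

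RPKM uses merged exon lengths of GENCODE M21 (GRCm38), which lists all 49 members. Coding sequences came from its transcripts. RefSeq promoters (GRCm38.p6) were found for 38 members. Another 31 annotated genes of these families had at most 5 reads in any library and are not members.

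Values are named for the 12 members with the highest mean CPM, those at an unadjusted edgeR p under 0.05 or called by DESeq2, and the highest of each other subfamily (26 in all), and for the 2 highest genes of each pathway list, where some are not reported here. The members and lists were chosen with earlier results of these data known.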

Additional observations from a re-analysis of the deposited data

Results flagged for a closer look

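In the 4 DKO libraries, 10 of 49 P450 genes had 1 library whose gap to the next one exceeded Dixon's 95% critical share of the range. Chance flags about 1 in 20 groups, a rate that does not apply to the scarce genes among them, 7 of which passed 5 reads in DKO 3 alone and 5 of which had 0 reads in every other library. Of the 36 tested genes only Cyp2r1 and Cyp2j13 were flagged, and the share flagged over all genes was not computed. DKO 3 was the highest library for 9 of the 10 flagged genes. Of these, 8 were genes too scarce to test: Cyp2c29 at 5.18 CPM, Cyp2c50 at 1.49 CPM, Cyp3a11 at 1.44 CPM, Cyp3a25 at 0.820 CPM, Cyp1a2 and Cyp2c37 at 0.564 CPM each, Cyp2a12 at 0.513 CPM and Cyp2c70 at 0.359 CPM. The ninth was Cyp2r1, at 1.85 CPM in DKO 3 and 1.52 to 1.55 CPM in the other DKO libraries. Cyp2j13 reached 180 CPM in DKO 4, against 58.1 to 70.3 CPM in the other DKO libraries.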

How the results depend on the processing

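With 7 animals, small changes could not be told from the spread, and large ones could go uncalled. Hs3st3a1, with a log2 fold change of -4.15 (SE 0.77), had an edgeR adjusted p of 0.163. edgeR called 0 genes, against 672 with DESeq2, 66 with no low-count filter, and 0 to 1 when each library was left out in turn, the 1 being Cyp2d22 without WT 2. It called 0 with limma-voom, DESeq2 size factors, a length and GC trend removed or the replicate block. P450 genes called numbered 0, against 2 with DESeq2 and 0 to 1 with a library left out. P450 genes at an unadjusted p under 0.05 numbered 11 (30.6%, beside 21.1% of all genes), and 4 to 18 with a library left out. The lowest was 11.1% without WT 4, beside 10.1% of all genes, and without DKO 1 it was 19.4%, beside 24.8%. Without DKO 4 it was 38.9%, beside 19.2%, and with the length and GC trend removed 41.7%, beside 15.5%. Of 25 named genes tested, 19 kept their direction under all 13 alternatives. Cyp2j11 was -0.0095 and Cyp2j5 -0.017 with DESeq2 and with its size factors. Cyp4b1 was 0.044 with the length and GC trend removed. With each library left out, the log2 fold change ranged from -0.21 to 0.44 for Cyp2j11, -0.11 to 0.20 for Cyp2j5, -0.091 to 0.31 for Cyp1b1, -0.52 to 0.18 for Cyp2a4, -0.38 to 0.16 for Cyp4b1 and -0.10 to 0.38 for Cyp4v3. The cause was not tested. The replicate numbers are not stated to pair the animals. Same-numbered DKO and WT libraries deviated with correlations of -0.13, 0.16 and 0.14 (replicates 1, 2 and 4). For differently numbered libraries of these replicates the correlations were -0.23 to 0.16. The libraries were not treated as pairs. With the replicate block 10 P450 genes were at an unadjusted p under 0.05, and Cyp4b1 was 0.078 and Cyp2a4 0.17.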
